A study of Mus musculus with 8 samples.

Results

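The receptors of the bone morphogenetic protein (BMP), activin and TGF-beta family were examined in common myeloid progenitors (CMPs) of young and old mice. They comprised 10 genes, Bmpr1a, Bmpr1b, Bmpr2, Acvr1, Acvr1b, Acvr2a, Acvr2b, Tgfbr1, Tgfbr2 and Tgfbr3, of the 34797 gene names on the array, and all 19 probes that carry one of these names were taken. Bmpr1a was chosen for its higher signal on the old arrays of this same experiment, so its values are given as a description without a test. The other 9 genes were chosen by family, with the results for the whole array known.

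CMPs are bone marrow cells that give rise to the myeloid lineages. They were sorted as Lin-, c-Kit+, Sca-1-, CD34+ cells with low Fc gamma receptor from untreated wildtype C57BL/6J mice, 2 to 3 months old (young, 4 arrays, replicates 3 to 6) or 22 to 24 months old (old, 4 arrays, replicates 2 to 5), as the sample labels put it. Total RNA was labelled with Cy3 and hybridized to 1-colour Agilent arrays, 1 array per sample. The series text gives other ages, 3 to 4 and 22 to 26 months, so the sources differ. The study's methods describe mice measured one by one, 3 per age, while 4 arrays per age are labelled, and all 8 were used. Whether the fourth array of each age came from another animal is not given in the sources used here, and the p-values measure the spread between these arrays.

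Levels are log2 intensities minus the 75th percentile of the same array, a percentile that lay between 290 and 565 intensity units. A spot counted as measured when the scanner software marked it as well above background. Precision is set by how many arrays there are. Both slides held 2 young and 2 old arrays. Kit and Cd34, which define the gate, were well above background on all 8 arrays. Ly6a, which encodes the Sca-1 that the gate leaves out, was so too, at −0.12 ± 0.18 in young and −0.85 ± 0.40 in old CMPs (SD, n = 4 each). The probes of 4 Y-linked genes, Ddx3y, Eif2s3y, Kdm5d and Uty, were not above background on any array. In sorted populations fewer cells of a type and less RNA per cell cannot be told apart.

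Ligands of this family bind a complex of type II receptors (Bmpr2, Acvr2a, Acvr2b, Tgfbr2) and type I receptors (Bmpr1a, Bmpr1b, Acvr1, Acvr1b, Tgfbr1), both of which are serine/threonine kinases. The type II kinase phosphorylates the type I kinase, which then phosphorylates receptor Smads. Smad1, Smad5 and Smad9 serve the BMP branch and Smad2 and Smad3 the activin and TGF-beta branch, and all of them act together with Smad4. In blood formation TGF-beta is known as a brake on the cycling of stem cells, and BMP4 as a signal in the making of blood cells in the embryo.

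The array measures each gene by probes of 60 bases. The probes of Bmpr1a and Bmpr1b are shown here by their first 30 bases, 5′ to 3′, as deposited. The Bmpr1a probe lies at chr14:35224339-35224398 on the minus strand (build mm9), 5336 bases into its transcript. Both probes of its closest relative Bmpr1b lie on the minus strand too, at chr3:141503374-141503433, 2002 bases into the transcript, and at chr3:141500694-141500753, 4682 bases into it.
Bmpr1a A_52_P17146: gattcatcttgatatgtaacactaagtgta
Bmpr1b A_66_P136389: atcatggctttctgaggaggagaaactgtt
Bmpr1b A_52_P586944: atttatggaagcatgtacattgtgaactcc
All 3 forward reading frames of the whole Bmpr1a probe hold a stop codon, so the probe is not coding over its whole length. Its GC content was 35.0%, below the lower quartile of all probes on the array, 36.7%.

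The Tgfbr2 probe A_55_P2107288 is printed in full because it reads the end of the coding sequence, at chr9:115999496-115999555 on the minus strand, 2045 bases into the transcript. The other Tgfbr2 probe lies 4386 bases into it. Capitals mark the last 3 bases, a stop codon, and the frame that ends there has no earlier stop.
Tgfbr2 A_55_P2107288: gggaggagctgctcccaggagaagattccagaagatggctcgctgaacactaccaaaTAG

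Bmpr1a encodes a type I receptor for BMP2 and BMP4, also called ALK3. Its single probe read −7.15, −5.99, −6.37 and −6.99 on young replicates 3 to 6 and −2.42, −2.45, −1.68 and −2.16 on old replicates 2 to 5. It was well above background on 4 of 4 old arrays and on 0 of 4 young arrays, and the lowest old value lay 3.54 log2 units above the highest young one. Before scaling, the young intensities were 2.94, 8.91, 4.25 and 4.04 and the old ones 96.5, 64.8, 90.7 and 94.6. The weakest spot well above background on each array had between 11.0 and 18.4 units, so the young values are readings of background.

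The mean level was −6.62 ± 0.54 in young CMPs and −2.18 ± 0.36 in old CMPs (SD, n = 4 each). As the young level is only bounded from above, the excess of Bmpr1a in old CMPs was at least 6.54-fold, each young array being raised to its weakest spot well above background where it lay below it. With normexp background correction, with an offset of 50 added to every spot, this bound was 2.33-fold. Within slide 1 the bound was 4.89-fold and within slide 2 it was 8.76-fold. Being measured on every old array and on no young array was a pattern of 20 of all 55681 probes, Bmpr1a included. The reverse, every young array and no old one, was the pattern of 14 probes.

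**Figure D1:**
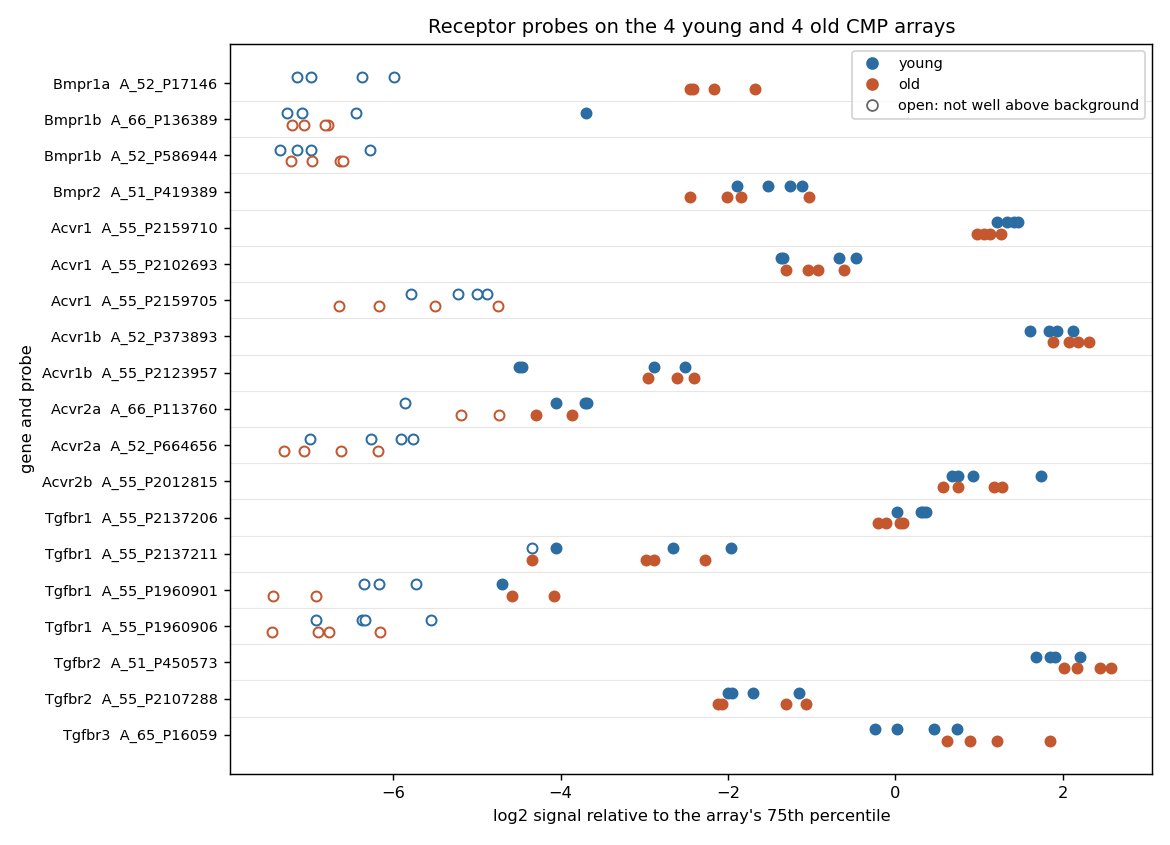
Levels of the 19 receptor probes (rows) as log2 signal relative to each array's 75th percentile (x axis) on 4 young (blue) and 4 old (orange) arrays; open circles were not well above background, and 1 flagged spot is left out. Bmpr1a is the row in which all 4 old arrays are filled and all 4 young arrays are open. Levels of different probes cannot be compared with each other.

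Among the 18 probes of the other 9 receptors, 12 probes of 8 genes reached the limit of 4 arrays with a signal well above background and entered the test over all 33472 such probes. None of the 12 passed, a call being a Benjamini-Hochberg adjusted p under 0.05 in limma and a change of at least 1.5-fold, where 0.191% of all tested probes were called (53 higher and 11 lower in old). The 12 differences between old and young ran from −0.39 to 0.93 on the log2 scale, 6 above and 6 below 0, with a median of 0.02 against −0.02 over all tested probes. At an unadjusted p under 0.05, 1 of the 12 was found, Tgfbr3, where 6.34% of all tested probes were. Young and old arrays overlapped at all 12, while they did not overlap at 4.44% of all tested probes. The 12 95% intervals reached from −1.28, for a probe of Acvr2a, to 2.07, for a probe of Acvr1b.

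Of the type I receptors for BMPs, Bmpr1b (ALK6) gave no test. Its probe A_52_P586944 stayed at background on every array, with values from −7.35 to −6.28 in young and from −7.23 to −6.60 in old CMPs. Its probe A_66_P136389 was well above background on young replicate 3 alone, at −3.70, and read from −7.27 to −6.44 on the other 7 arrays. Bmpr1b was therefore at or near background at both ages.

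Acvr1 (ALK2), which takes both BMP and activin-like ligands, was read by 3 probes. The probe A_55_P2159710 gave 1.34, 1.42, 1.21 and 1.47 in young and 1.13, 0.98, 1.06 and 1.26 in old CMPs, so that only young replicate 5 lay within the old range. Its difference was −0.25 (SE 0.16, 95% interval −0.62 to 0.11, limma adjusted p = 0.986). The probe A_55_P2102693 gave −0.96 ± 0.46 and −0.98 ± 0.29 (SD, n = 4 each), a difference of −0.01 with an interval from −0.59 to 0.57. The probe A_55_P2159705, to another transcript, stayed at background throughout.

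The activin type I receptor Acvr1b (ALK4) had a bright probe and a dim one. The bright probe, A_52_P373893, gave 1.83, 1.60, 1.93 and 2.12 in young and 2.31, 2.18, 2.08 and 1.88 in old CMPs, with ranges that overlapped. The difference was 0.24 (interval −0.17 to 0.65, limma adjusted p = 0.998). The dim probe, A_55_P2123957, gave −4.49, −4.46, −2.52 and −2.88 in young and −2.61, −2.96 and −2.41 in old CMPs, and old replicate 4 was left out as a flagged spot. Its difference of 0.93 had an interval from −0.21 to 2.07, and it was 1.87 within slide 2, with 1 old array left there, and 0.02 within slide 1.

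Tgfbr1 (ALK5) is the type I receptor for TGF-beta, and its 4 probes sat at different places of the gene. The brightest, A_55_P2137206, gave 0.37, 0.30, 0.02 and 0.32 in young and −0.11, 0.09, −0.21 and 0.06 in old CMPs. Young replicate 5 alone fell among the old arrays, and the difference was −0.29 (SE 0.17, interval −0.67 to 0.09, limma adjusted p = 0.952). The probe A_55_P2137211 spread widely within both ages, at −3.26 ± 1.13 and −3.12 ± 0.87 (SD, n = 4 each), with a difference of 1.27 within slide 1 and −0.99 within slide 2. Of the remaining probes, A_55_P1960901 was well above background on 1 young and 2 old arrays and A_55_P1960906 on none.

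The type II receptor for BMPs, Bmpr2, was measured on all 8 arrays at −1.26, −1.89, −1.11 and −1.53 in young and −2.46, −2.01, −1.03 and −1.85 in old CMPs. Old replicate 4 was the highest and old replicate 2 the lowest of all 8 arrays. The difference was −0.39 (SE 0.31, interval −1.08 to 0.30, limma adjusted p = 0.998). RNA of this type II receptor was thus measured at both ages. The size of its difference lay between the SD of the young arrays, 0.34, and that of the old ones, 0.59.

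Acvr2a, a type II receptor shared by activins and BMPs, was near background. Its probe A_66_P113760 was well above background on 3 young and 2 old arrays, at −4.33 ± 1.03 and −4.52 ± 0.57 (SD, n = 4 each), and its probe A_52_P664656 on none. Acvr2b, its relative, was clearly measured at 1.74, 0.67, 0.92 and 0.74 in young and 1.27, 1.17, 0.75 and 0.57 in old CMPs. The ages overlapped, and the difference was −0.08 with an interval from −0.70 to 0.54.

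Tgfbr2, the type II receptor that binds TGF-beta itself, gave 1.85, 1.68, 1.91 and 2.21 in young and 2.45, 2.01, 2.17 and 2.57 in old CMPs at the probe A_51_P450573. The 2 highest arrays were old, but young replicate 6 lay above old replicates 3 and 4, and the difference was 0.39 (SE 0.20, interval −0.06 to 0.83, limma adjusted p = 0.901). The probe at the end of the coding sequence, printed above, gave −1.70 ± 0.39 and −1.64 ± 0.53 (SD, n = 4 each). Its difference was 0.06, with an interval from −0.61 to 0.73 that contains the value of the first probe.

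Tgfbr3 (betaglycan) is a co-receptor that presents TGF-beta to Tgfbr2 and has no kinase of its own. It gave −0.25, 0.02, 0.46 and 0.74 in young and 1.85, 1.21, 0.62 and 0.89 in old CMPs. The ages overlapped at 1 point only, young replicate 6 lying above old replicate 4. The difference was 0.90 (SE 0.31, interval 0.21 to 1.59), with an unadjusted p of 0.0157 and an adjusted p of 0.513 in limma, so it did not pass. Within slide 1 the difference was 0.45 and within slide 2 it was 1.35.

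**Figure D2:**
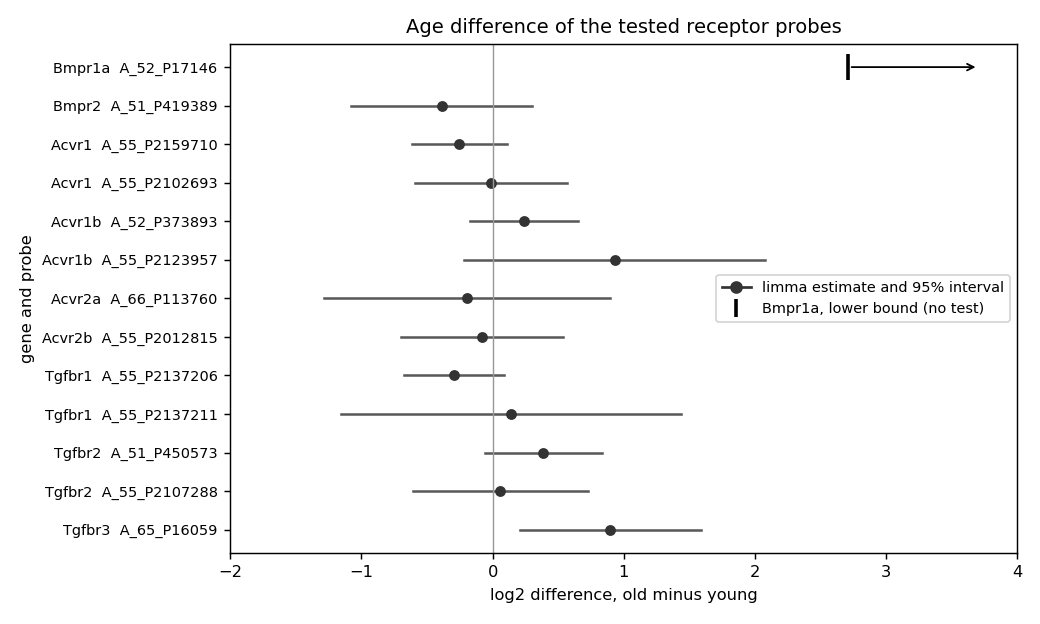
Log2 differences, old minus young (x axis), of the 13 receptor probes that entered the fit (rows); points and lines are limma estimates with 95% intervals. For Bmpr1a the bar with an arrow is the lower bound of 2.71, with no test. Of the other 12 intervals, only that of Tgfbr3, from 0.21 to 1.59, leaves out 0.

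Beyond the receptors, 94 genes of the pathway were followed in lists by role, and 65 of them had a probe that was tested. None of the 65 was called, against 0.250% of all 23155 gene names tested. Each gene is represented by its brightest probe from here on. The median difference of the 65 was 0.21, against −0.02 over all tested probes, with 45 above and 20 below 0. Shifting arrays to the median instead of the 75th percentile raised the median of all tested probes by 0.12 to 0.10 and the split to 51 and 14, while the number above the median of all probes stayed at 46 of 65. At an unadjusted p under 0.05, 8 of the 65 genes were higher and 0 lower in limma, against 4.69% higher and 3.41% lower over all gene names tested.

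Among the ligands, 20 of 33 genes were tested, 11 higher and 9 lower, with a median of 0.06. Gdf3, a ligand of the nodal branch, gave 2.16, 2.37, 2.86 and 3.13 in young and 4.39, 3.75, 3.85 and 3.80 in old CMPs, so that every old array lay above every young one. Its difference was 1.31 (SE 0.26, limma adjusted p = 0.119). Its second probe, A_55_P2158448, did not overlap between the ages either, with a difference of 0.62 (adjusted p = 0.301). Bmp4, a ligand of Bmpr1a, lay at −3.75 ± 0.43 in young and −2.65 ± 0.81 in old CMPs (SD, n = 4 each), a difference of 1.09 (limma adjusted p = 0.547), with old replicate 5 within the young range. Bmp7 differed by 0.96 (adjusted p = 0.325), with old replicate 4 below young replicate 5. Bmp3, Bmp6, Gdf2, Gdf6, Gdf10, Mstn and Amh were not well above background on any array.

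Of the other receptors and co-receptors, 6 of 10 were tested, 3 on either side of 0. The largest differences were 0.54 for Rgmb, a BMP co-receptor, 0.53 for Amhr2, the type II receptor for the anti-Müllerian hormone, and −0.50 for Tdgf1, a co-receptor of nodal. Of the secreted antagonists, 7 of 14 were tested. Fst, which binds activins, differed by 0.77, Nog, which binds BMPs, by −0.62 and Dand5 by 0.46, and of these Dand5 alone did not overlap between the ages (limma adjusted p = 0.607). Nog spread widely, from −0.04 to 1.22 in young and from −0.86 to 1.24 in old CMPs.

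At their brightest probes all 7 tested Smads had a positive difference, from 0.10 for Smad4 to 0.43 for Smad3, and none passed. Other tested probes went the other way, at −0.20 for Smad3 (A_51_P441022) and −0.02 for Smad5 (A_65_P06572), or the same way, at 0.15 for Smad1 (A_55_P2029285) and 0.36 for Smad4 (A_55_P2112617). Smad3, which carries TGF-beta and activin signals, gave 2.16 ± 0.25 in young and 2.59 ± 0.17 in old CMPs (SD, n = 4 each, limma adjusted p = 0.784). In the BMP branch Smad1 differed by 0.14 and Smad5 by 0.13, and Smad9 stayed at background throughout. Smad2, the other receptor Smad of the TGF-beta branch, differed by 0.11. The inhibitory Smads, Smad6 and Smad7, differed by 0.21 and 0.28. With normexp background correction the difference of Smad4 was −0.01, so that 6 of 7 were positive.

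Of the intracellular regulators 14 of 14 were tested, with a median of 0.16. Pmepa1, a TGF-beta target that restrains TGF-beta signalling, gave −1.06, 0.25, −0.76 and −0.13 in young and 0.35, 0.58, 0.43 and 0.49 in old CMPs, without overlap. The difference was 0.89 (SE 0.28, limma adjusted p = 0.419), and the second probe, A_55_P1959174, gave 0.79 and no overlap. Smurf1, a ubiquitin ligase for BMP Smads, differed by 0.47 and Xiap, which links BMP type I receptors to Tab1, by −0.48, both with ages that overlapped.

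Of 15 target genes 11 were tested, 9 of them with a positive difference, and the median was 0.34. Id1, Id2 and Id3, the best known targets of BMP Smads, encode partners that keep other transcription factors from DNA. They differed by 0.30, 0.54 and 0.33, and the ages overlapped for each (limma adjusted p = 0.998, 0.950 and 0.979). Atoh8, a BMP target in liver, gave −3.94, −2.98, −2.36 and −2.26 in young and −1.59, −1.65, −1.97 and −2.03 in old CMPs. All old arrays lay above all young ones, and the difference was 1.07 (SE 0.35, adjusted p = 0.451). In the 6 lists together the ages did not overlap at 7 of 84 tested probes, all higher in old CMPs. Over all tested probes the share was 4.44%, with 2.87% higher in old CMPs.

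**Figure D3:**
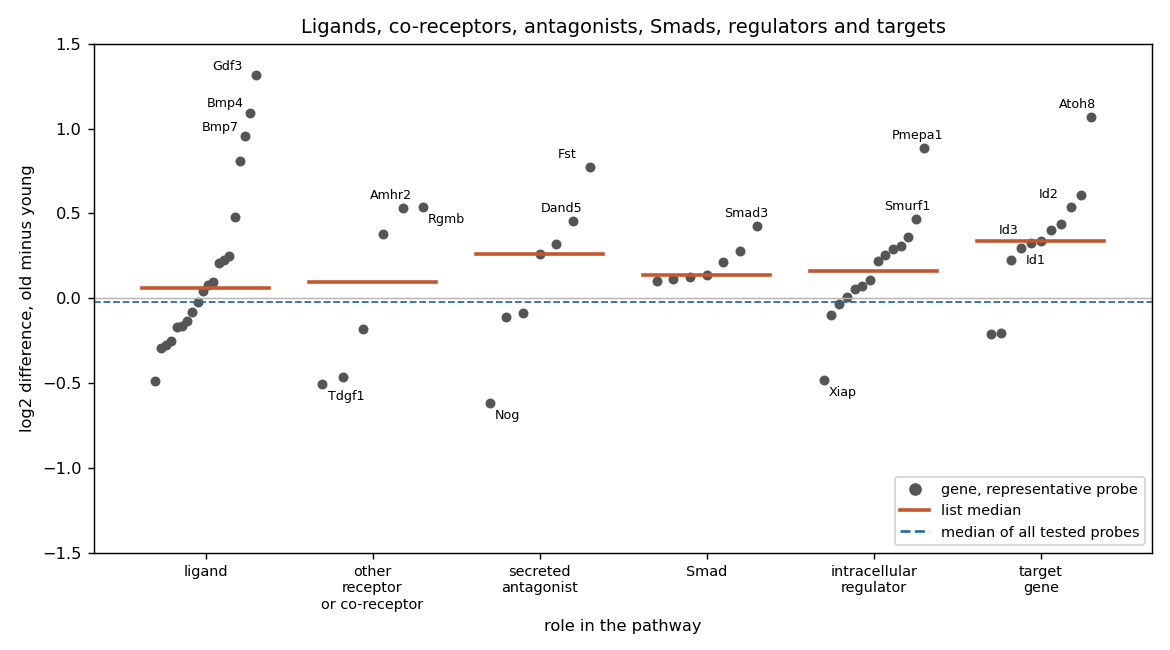
Log2 differences, old minus young (y axis), of the 65 tested genes of the pathway by role (x axis), each point 1 gene at its brightest probe; orange lines are list medians and the dashed line is the median of all tested probes, −0.02. No point was called. The brightest probes of all 7 Smads and of 9 of 11 target genes lie above 0.

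Markers of other cells moved with age in the same arrays, and their part in the Bmpr1a values was not tested. Of 14 megakaryocyte markers 14 were tested, and Gp9, a subunit of a platelet receptor, was called (1.21, limma adjusted p = 0.0327), a call lost without any 1 array (adjusted p from 0.0738 to 0.153). All 14 had a positive difference, 13 without overlap, and the median was 1.06. The mean level of that list per array ran from 1.65 to 2.17 in young and from 2.96 to 3.31 in old CMPs, and the sum of its levels from 160 to 252 and from 380 to 480 times the 75th percentile. Of 6 mast cell and basophil markers Fcer1a, a subunit of the IgE receptor, was called (2.50, limma adjusted p = 0.0293), a call lost without any 1 of 6 arrays (adjusted p from 0.0546 to 0.105). Among these 6 markers 5 had a positive difference, 2 of them without overlap, and Cma1 differed by −1.01. The summed level of the mast cell and basophil list ran from 13.6 to 16.9 in young and from 21.1 to 55.5 in old CMPs. Its brightest marker, Gzmb, ran from 2.87 to 3.44 and from 3.36 to 5.51 on the log2 scale. Of 6 endothelial markers none was called, 3 of 5 tested did not overlap and were higher in old CMPs. Their summed levels of 16.9 to 23.2 and 20.1 to 26.9 overlapped, while the mean levels of −0.23 to 0.40 and 0.66 to 0.88 did not. Kdr, the brightest of them, differed by −0.05, and by 0.86 without overlap at its second probe, A_51_P316553. Cdh5, which defines endothelial cells, was well above background on 1 array, an old one.

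Granulocyte and monocyte markers lay the other way. All 7 tested had a negative difference, 2 without overlap, none was called, and the summed level ran from 389 to 561 in young and from 252 to 428 in old CMPs. Of 8 stromal markers 0 were called, and their summed level ran from 14.2 to 18.4 and from 11.8 to 20.9. Of the 6 tested, 3 had a positive and 3 a negative difference. Col1a2 alone did not overlap, higher in old CMPs by 1.22 (limma adjusted p = 0.161). Of 7 CMP markers 0 were called and 5 had a negative difference. Their summed level was 598 to 809 in young and 503 to 549 in old CMPs, without overlap. The mean level of the CMP list overlapped, at 3.90 to 4.36 and 3.76 to 4.13. Mpo, the brightest of the CMP markers, was lower in old CMPs without overlap (−0.59, limma adjusted p = 0.356). At its second probe, A_55_P2066505, the difference was −0.66 and the ages overlapped. None of the 8 markers of HSCs, 8 erythroid and 8 lymphoid markers was called. For the HSC list the summed level ran from 15.2 to 19.8 in young and from 22.3 to 26.8 in old CMPs, without overlap. Its mean level overlapped, at −0.92 to −0.50 and −0.73 to −0.45. Among its 7 tested markers 4 had a positive and 3 a negative difference, and without overlap Meis1 was higher and Ly6a lower in old CMPs. Erythroid and lymphoid sums overlapped. Among the 6 tested erythroid markers 3 had a positive and 3 a negative difference, and Car2 alone did not overlap (0.63, limma adjusted p = 0.508). The sum of the levels of the 9 other receptors overlapped between the ages, at 13.1 to 16.8 and 15.4 to 19.7.

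**Figure D4:**
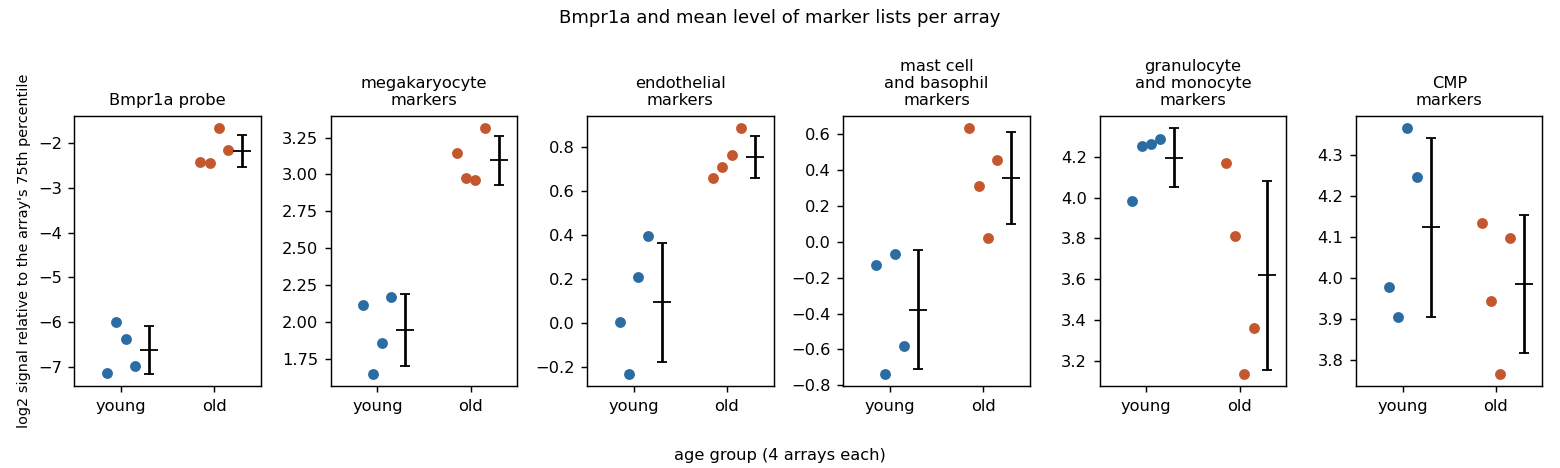
Level of the Bmpr1a probe (first panel) and mean level of the tested markers of 5 cell types (other panels) on each of the 4 young (blue) and 4 old (orange) arrays, as log2 signal relative to the 75th percentile (y axes differ between panels); bars are the mean and SD. The ages separate for Bmpr1a and for megakaryocyte, endothelial and mast cell markers, and overlap for the other 2 lists.

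The probes outside these lists whose values followed Bmpr1a most closely over the 8 arrays were ranked by Pearson's r, as a description that the difference between the ages dominates. Wwtr1, which encodes the transcriptional co-activator TAZ, came first with r = 0.99 over 8 arrays. It was well above background on 0 young and 4 old arrays, at −6.91 ± 0.32 and −3.06 ± 0.27 (SD, n = 4 each), a difference of at least 3.54-fold. A230065H16Rik and the probe A_30_P01031958, to a transcript without a gene symbol, had r = 0.98 and 0.97 and were also measured on the old arrays alone, at least 4.13-fold and 4.72-fold higher. Slc6a15, a transporter of neutral amino acids, had r = 0.98, with −4.23 ± 0.30 in young and −2.16 ± 0.26 in old CMPs. Wdr65 had r = 0.97 with −4.01 ± 0.34 and −2.66 ± 0.15 (SD, n = 4 each).

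**Figure D5:**
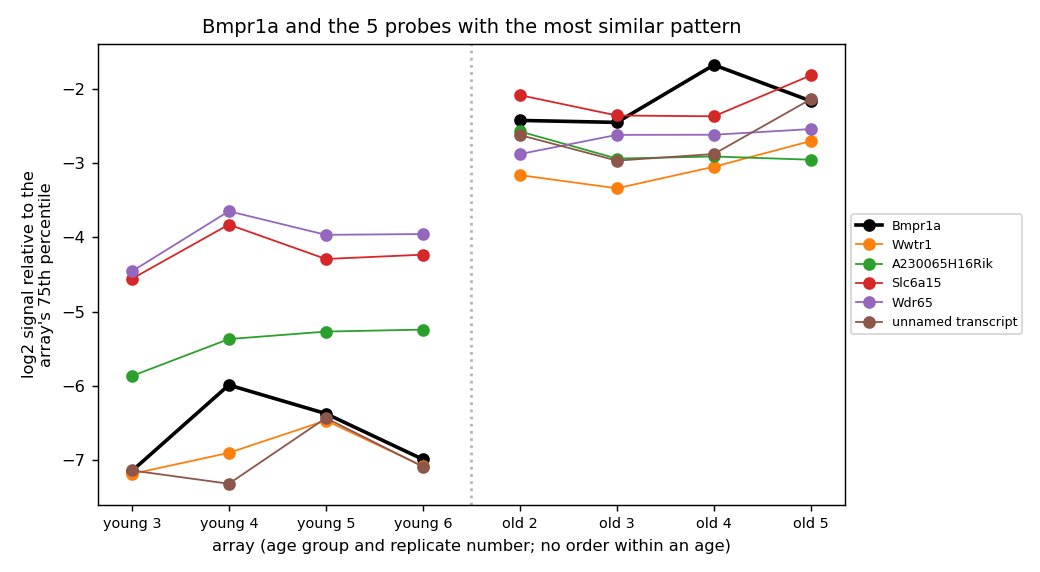
Level of Bmpr1a (black) and of the 5 probes with the most similar pattern (colours) on each of the 8 arrays (x axis), as log2 signal relative to the 75th percentile (y axis). All 6 probes lie higher on each of the 4 old arrays than on each of the 4 young ones; lines only join the arrays of an age, which have no order.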

How the data were processed

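The authors labelled total RNA with Cy3 and deposited, for each array, the linear intensity of each of 62976 spots, background-corrected by Agilent Feature Extraction 10.7.3.1 (version per the submitters' processing notes), with marks for spots well above background or flagged as outliers. Probe coordinates are those of build mm9. A second deposited file, the series table, holds the authors' log2 values after a shift by the 75th percentile and subtraction of the median over samples, and was an alternative here.

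Log2(intensity) minus each array's 75th percentile over 59305 non-control spots was computed. Outlier spots (141 to 230 per array) were left out, and spots were averaged into 55681 probes. Probes well above background on at least 4 of 8 arrays were tested with limma 3.58.1 in R 4.3.3 (lmFit, eBayes), adjusted over all 33472 of them by Benjamini-Hochberg. The same fit was also run on simulated data with known changes, and its outcome there is not given here. The arrays of each age correlated at 0.969 to 0.992.

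Named were all receptor probes and, from each pathway list, called genes, the 3 largest differences, all tested Smads, Id1, Id2 and Id3, and the 5 probes most like Bmpr1a. Of these, 1 gene is not reported here. Receptors and lists were chosen with earlier results of these data known. Alternatives were normexp (offset 50), quantile and median scaling, the series table, other filters, array weights, robust variances along an intensity trend, slide or replicate blocks, leaving out each array and the methods' t-test, run here as Welch's test.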

Additional observations from a re-analysis of the deposited data

Results flagged for a closer look

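Of the receptor probes that entered the fit and the brightest probes of the named pathway genes, 3 had 1 array far from the other 3 of its age. Other pathway probes were not screened in this way. As 74 groups were looked at and chance gives this in about 1 of 20 groups, 3 is no more than chance gives. At the Acvr2a probe A_66_P113760 young replicate 5 read −5.86 and the other young arrays −4.05 to −3.69. At the Gdf3 probe A_66_P107818 old replicate 2 read 4.39 and the other old arrays 3.75 to 3.85. At the Bmp7 probe A_52_P278354 young replicate 5 read −3.92 and the other young arrays −4.35 to −4.30.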

How the results depend on the processing

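The 64 called probes became 104 with normexp, 28 without the filter on dim probes, 40 with detection asked on all 8 arrays, 101 with an intensity trend and robust variances, 302 with array weights, 39 with the slide as a block and 27 to 43 when 1 array was left out. The methods' t-test gave 1051 unadjusted and 0 after Benjamini-Hochberg adjustment. With the replicate number as a block 13 probes were called. For the numbers 3, 4 and 5 shared by both ages, the deviations of the arrays from their age means correlated at −0.09, −0.14 and 0.15. Only for number 5 was the old array of that number the one most like the young array. So few values cannot decide whether the numbers pair the arrays. The lower bound of the Bmpr1a difference, 2.71 on the log2 scale, was 1.22 with normexp, 2.29 within slide 1, 3.13 within slide 2 and 2.54 to 2.87 when 1 array was left out. The series table gave no such bound, since it marks no background, and no value for a single probe where it averages several. For the Acvr1b probe A_52_P373893 it gave a difference of 0.27. Calls among other receptors stayed at 0 except for Tgfbr3 in the unadjusted methods' t-test (1 probe). Called pathway genes went from 0 to 1 with normexp and with the intensity trend (Gdf3) and with array weights (Bmp7), and to 2 in the unadjusted methods' t-test (both).

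Differences near 0 changed sign, none of them called. The Acvr1 probe A_55_P2102693 gave 0.0047 with quantile scaling, 0.10 with the median shift, 0.033 with the replicate block and −0.15 to 0.15 when 1 array was left out. The Acvr2a probe gave 0.082 with normexp, 0.12 with the replicate block and −0.70 to 0.030 by leaving out arrays. Acvr2b gave 0.04 with the median shift, 0.21 with array weights and −0.19 to 0.16 by leaving out arrays. The Tgfbr1 probe A_55_P2137211 gave −0.22 to 0.57 by leaving out arrays, and the Tgfbr2 probe A_55_P2107288 −0.13 with array weights and −0.13 to 0.24. Smad1 gave −0.17 with array weights and −0.0029 to 0.27 by leaving out arrays, Smad2 −0.0019 with the replicate block and Smad4 −0.0072 with normexp. The Gp9 call was lost without any 1 array (adjusted p from 0.0738 to 0.153), and the Fcer1a call without any 1 but young replicate 5 or old replicate 2 (0.0546 to 0.105). Both were lost without the filter on dim probes, with either block and in the adjusted methods' t-test. The cause was not tested.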

Other observations

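Genes that lie beside Bmpr1a were read after its values had been seen. Within 200 kb of it, the RefSeq table places 10 other protein-coding genes, which had 14 probes on the array. Of these, 9 were tested and 0 were called in limma, where 0.191% of all tested probes were called. At that share so few probes cannot show whether the region differs from the rest of the array. On the side of the Bmpr1a probe, Mmrn2, an extracellular matrix protein of blood vessels, was well above background on 1 old array and no young one. Sncg differed by −0.14 (95% interval −0.89 to 0.61, limma adjusted p = 0.998). Glud1, a mitochondrial enzyme with a strong signal, differed by −0.04 and −0.10 at its 2 probes. On the other side Ldb3 differed by −0.16, and Opn4 was the tested neighbour with the largest difference, −0.82 (limma adjusted p = 0.644).

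The Bmpr1a probe shares a run of at least 15 bases, on either strand, with probes of 1 other gene name, Nufip2. The Nufip2 probe concerned shares 15 bases, was measured on all 8 arrays and differed by −0.20 (95% interval −0.78 to 0.38, limma adjusted p = 0.998).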
